A study of Mus musculus with 24 samples.

Results

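The comparison described here set the bone of old female HSD2OB-tg mice, aged 18 months, against that of young ones of the same line and sex, aged 3 months. HSD2OB-tg mice carry a transgene for 11β-HSD2 that is targeted to osteoblasts; the labels do not name its promoter. Members were chosen by sample title, and 6 of the 24 arrays of the series met the rule, 3 at each age. The other 18 arrays held transgenic bone of 6 and 12 months and wild-type bone of all 4 ages, 3 arrays per group, all from females fed standard chow. RNA came from the tibiae and femur, and only the tibia is said to have been cleared of marrow. It was hybridised to Affymetrix Mouse Gene 2.1 ST arrays, on which 22180 genes with a symbol of their own were tested. The design calls the arrays biological triplicates, but no label ties an array to an animal or says whether animals were pooled. The p-values therefore measure how far these arrays spread, which may be technical.

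Glucocorticoids act through the glucocorticoid receptor, and 11β-HSD2, encoded by Hsd11b2, inactivates them before they reach it. Its expression in osteoblasts therefore shields these cells from the hormone. Osteoblasts build bone matrix, chiefly type I collagen, and mineralise it, and some become osteocytes buried in that matrix. Bone formation declines with age in mice, while fat accumulates in the marrow and plasma cells settle there. The series title names ageing, leptin resistance and obesity as the subject of the study.

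Hsd11b2, the gene the transgene carries, had log2 values of 4.88, 5.10 and 4.47 in the 3 arrays of 18 months and 5.52, 5.02 and 5.21 in those of 3 months. The groups overlapped, and the fitted difference of -0.40 (SE 0.24) did not pass (limma, adjusted p = 0.502). All transgenic arrays of these ages lay above all wild-type arrays of the same ages, in which Hsd11b2 reached at most 3.98. Genes of bone and of marrow were both measured at high levels in the 6 arrays. Col1a1, the main chain of type I collagen, ran from 10.8 to 13.2, and the mean of 17 neutrophil genes ran from 9.30 to 10.2. Correlations between the 6 arrays over all genes ranged from 0.965 to 0.987. By its mean correlation with the other arrays of its own group, the third array of 18 months stood farthest out (0.9818, against 0.9822 to 0.9864 for the other five), by a small margin.

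Matrix-building genes of the osteoblast were lower in old transgenic bone. Genes of muscle, plasma cells and energy metabolism had higher values, few of which passed. With limma, 360 genes (1.62%) passed an adjusted p of 0.05, of which 92 rose (0.415% of the genes tested) and 268 fell (1.21%). The median rise was 1.55 and the median fall was -1.33 on the log2 scale, against a median of -0.01 over all genes, 48.2% of which were above 0 and 51.8% below. Among the called genes, 74 rises and 203 falls exceeded 2-fold. The arrays of the 2 ages did not overlap for 78 of the 92 rises and 262 of the 268 falls; over all genes, 7.35% lay wholly higher and 9.13% wholly lower at 18 months. In RNA from whole bone, fewer cells of a type and less RNA per cell cannot be told apart. Without the third array of 18 months no gene passed. The calls also needed the wider set of arrays: a limma fit of the 6 arrays alone, with no prefix term, called 4 genes, 4 higher and 0 lower (2606 at an unadjusted p under 0.05). A fit of the transgenic arrays alone called 2, 2 higher and 0 lower.

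Osteoblast genes were lower as a group. Of 16 genes listed, 11 were measured, all 11 were lower at 18 months, and 7 passed the test. Their median was -1.75, and in all 11 the 3 arrays of 18 months lay below the 3 of 3 months. Over all genes, 1.21% were called lower and 9.13% lay wholly lower. The mean of the list was 8.74, 8.47 and 6.78 at 18 months and 9.54, 9.96 and 9.80 at 3 months. The third array of 18 months was thus far below its group, while the other two still lay below every young array. Without that array the list's median was -1.11.

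Bglap, which encodes osteocalcin, a protein of mineralised matrix, had values of 5.03, 5.57 and 3.69 at 18 months and 6.52, 7.82 and 6.73 at 3 months. All old arrays were lower than all young ones, with the third the lowest. The fitted fall was 2.50 on the log2 scale (SE 0.55; limma, adjusted p = 0.0323), a 5.68-fold difference. Smpd3, a sphingomyelinase needed for matrix mineralisation, stood at 8.11, 7.78 and 5.23 at 18 months and at 9.56, 9.91 and 9.67 at 3 months. It fell by 2.77 (SE 0.56; limma, adjusted p = 0.0256), and by 1.76 without the third old array. For Sp7, the transcription factor osterix required for osteoblast differentiation, the old arrays read 8.34, 7.80 and 5.86 and the young ones 8.69, 9.39 and 9.40. The groups did not overlap, but the first old array was close to the lowest young one. Its fall of 1.88 (limma, adjusted p = 0.0451) shrank to 1.11 without the third old array, among the 5 falls that shrank most.

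Omd, a keratan sulphate proteoglycan of bone, fell by 2.10 (limma, adjusted p = 0.0366). Pth1r, the receptor of parathyroid hormone, fell by 1.74, Ifitm5, a membrane protein of mineralising osteoblasts, by 1.83, and Alpl, the phosphatase that frees phosphate for mineral, by 1.63 (limma, adjusted p = 0.0295, 0.0343 and 0.0392). These last 3 were named after their values were seen. Without the third old array Omd differed by -1.38, Ifitm5 by -1.22 and Alpl by -1.03. The type I collagen chains had lower values that did not pass, with differences of -1.19 for Col1a1 and -1.75 for Col1a2 (limma, adjusted p = 0.114 and 0.0582), or -0.59 and -1.01 without that array. Of 10 osteocyte genes, 1 fell, Kcnk2, a mechanosensitive potassium channel, by 2.22 (limma, adjusted p = 0.011). Kcnk2 read 5.67, 5.26 and 3.76 at 18 months and 7.14, 7.02 and 7.06 at 3 months, so that the young arrays were tightly grouped and the old ones were not. The osteocyte list as a whole had a median of -0.66, which was -0.28 without the third old array.

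**Figure D1:**
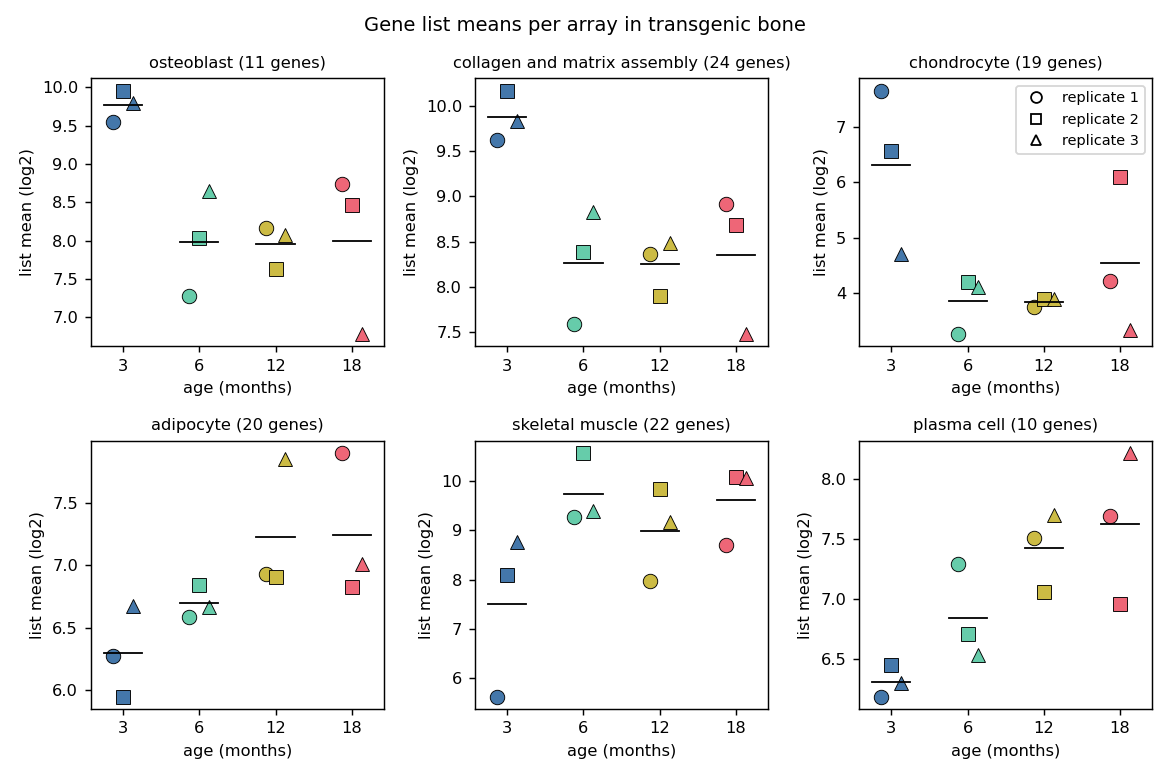
Mean log2 value of 6 gene lists in each of the 12 transgenic arrays, by age in months; symbols mark the replicate and bars the mean of 3 arrays. The osteoblast and collagen means at 3 months (at least 9.54) lie above all older arrays, and the third array of 18 months (triangle) is the lowest of its group in both, at 6.78 and 7.48.

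Collagens and the proteins that fold and join them were lower throughout. Of 24 genes measured (26 listed), all 24 were lower, 22 of them without overlap, against 9.13% of all genes. The number that fell was 7, against 1.21% of all genes. The list's median was -1.47, and -0.94 without the third old array. The mean of the list was 8.91, 8.68 and 7.48 at 18 months and 9.62, 10.17 and 9.83 at 3 months. All old arrays were below all young ones, and the third was the lowest. Col5a2, a chain of type V collagen, which regulates fibril diameter, read 8.25, 7.98 and 5.75 at 18 months against 9.52, 10.25 and 9.61 at 3 months, and fell by 2.57 (SE 0.59; limma, adjusted p = 0.037), or by 1.70 without the third old array. Its partner Col5a1 fell by 1.96, the fibril-binding proteoglycan Lum by 2.33 and the matricellular protein Postn by 1.80 (limma, adjusted p = 0.0253, 0.0491 and 0.0392). A dimmer second row of Col5a1 gave -0.30 (limma, adjusted p = 0.667). The other members that passed, named after their values were seen, were the collagen chaperone Serpinh1 (-1.79), the lysyl hydroxylase Plod2 (-1.77) and the procollagen protease Bmp1 (-1.74).

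Cartilage genes were lower by a larger median, -1.96 over 19 genes, but 2 of the 19 passed, where 1.21% of all genes fell. Both were chains of type XI collagen, a fibril collagen that osteoblasts also make. Col11a1 read 9.13, 9.04 and 5.98 at 18 months and 10.60, 11.09 and 10.63 at 3 months, and fell by 2.87 (SE 0.68; limma, adjusted p = 0.0408), or by 1.72 without the third old array. Col11a2 fell by 2.32 (limma, adjusted p = 0.0256). Genes more restricted to cartilage varied widely between arrays of one age. Acan, the core protein of aggrecan, read 5.23, 8.55 and 3.22 at 18 months and 10.07, 8.90 and 7.32 at 3 months, so the second old array was above the third young one. Its difference of -2.80 had an SE of 1.07 and did not pass (limma, adjusted p = 0.215); it was -0.97 without the third old array. The list mean ran from 4.70 to 7.65 at 3 months and from 3.34 to 6.09 at 18 months. The list's median was -0.80 without the first young array, -1.04 without the third old array and -2.99 without the second old array.

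Several of the largest falls lay outside these lists. Slc13a5, a citrate transporter, read 7.54, 7.43 and 4.57 at 18 months and 9.08, 9.62 and 9.83 at 3 months. It had the largest fall of any named gene, 2.97 (SE 0.67; limma, adjusted p = 0.0343), and 1.91 without the third old array. The matrix-associated genes Cpz, a secreted carboxypeptidase, and Cthrc1, a secreted protein containing a collagen repeat, fell by 2.77 and 2.36 (limma, adjusted p = 0.0301 and 0.00813). Without the third old array the differences were -1.81 for Cpz and -2.01 for Cthrc1. Ranbp3l, a nuclear export factor for Smad proteins, read 4.63, 4.31 and 3.25 against 6.09, 6.89 and 6.93, and fell by 2.61 (SE 0.36; limma, adjusted p = 0.00813). Prss35 (-2.63), Mamdc2 (-2.57), Fam167a (-2.43), Entpd3 (-2.36), which encodes an ectonucleotidase, and Cgref1 (-2.33) complete the 15 largest falls; Entpd3 differed by -1.47 without the third old array.

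Signalling genes of bone moved in part. In the Wnt list 18 of 19 genes were lower, against 51.8% of all genes, and 2 fell, against 1.21%. These were Wif1, a secreted Wnt antagonist (-2.10; limma, adjusted p = 0.0324), and Ccn4, a matricellular Wnt target (-1.64; limma, adjusted p = 0.0442). Without the third old array they differed by -1.30 and -1.002. In the BMP and TGF-beta list 16 of 19 were lower and 1 fell. That gene was Smad6, an inhibitory Smad, which read 5.92, 5.49 and 4.59 at 18 months and 6.74, 7.04 and 7.00 at 3 months. Its fall of 1.69 (SE 0.26; limma, adjusted p = 0.00813) was 1.34 without the third old array, and the groups did not overlap. The list medians were -0.69 for Wnt and -0.40 for BMP and TGF-beta, and -0.46 and -0.25 without that array. None of 15 osteoclast genes passed at an adjusted p of 0.05; their median was -0.29, and 0.01 without the third old array. Ctsk, the collagenase of osteoclasts, had a difference of -1.06 (limma, adjusted p = 0.259).

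Unc5c and Gpnmb withstood the removal of single arrays best, each called in 5 of 6 removals, while no gene was called in all 6. Unc5c encodes a netrin receptor; it was named for this count, after its values were seen. Its values were 4.61, 4.98 and 4.06 at 18 months and 6.44, 6.69 and 6.25 at 3 months. It fell by 1.96 (SE 0.24; limma, adjusted p = 0.00388), the smallest adjusted p of all genes, with a clear gap between the groups. Without the third old array, the 1 removal in which it was not called, the fall was 1.69 (limma, adjusted p = 0.0752). Gpnmb encodes osteoactivin, a glycoprotein of macrophages, osteoclasts and osteoblasts. It read 6.99, 7.90 and 8.03 at 18 months and 4.78, 5.36 and 5.02 at 3 months. It rose by 3.01 (SE 0.45; limma, adjusted p = 0.00813), an 8.06-fold difference, and the rise was 2.95 without the third old array. All old arrays lay well above all young ones, whereas the list of 14 macrophage genes had a median of 0.20 and no called member. Gpnmb was already above the young arrays at 6 months (7.30 to 8.83) and 12 months (5.905 to 7.96). Its rise was thus not confined to 18 months.

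The 250 bases upstream of the start of transcription are given for Bglap, the osteoblast gene with the best-known promoter, and for Unc5c and Gpnmb, the most stable fall and rise. They are RefSeq sequence of build GRCm38.p6, on the gene's strand, 5′ to 3′. Capitals mark ACCACA or its reverse complement TGTGGT, the core letters bound by RUNX factors, among them the osteoblast regulator RUNX2. Bglap lies at chr3:88384467-88384716 (minus strand), Unc5c at chr3:141465314-141465563 (plus strand) and Gpnmb at chr6:49036268-49036517 (plus strand).
Bglap: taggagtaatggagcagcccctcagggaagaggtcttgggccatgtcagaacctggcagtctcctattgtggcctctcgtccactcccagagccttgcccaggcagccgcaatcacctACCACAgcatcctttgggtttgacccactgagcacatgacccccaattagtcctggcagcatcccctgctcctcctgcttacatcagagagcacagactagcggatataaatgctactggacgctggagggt
Unc5c: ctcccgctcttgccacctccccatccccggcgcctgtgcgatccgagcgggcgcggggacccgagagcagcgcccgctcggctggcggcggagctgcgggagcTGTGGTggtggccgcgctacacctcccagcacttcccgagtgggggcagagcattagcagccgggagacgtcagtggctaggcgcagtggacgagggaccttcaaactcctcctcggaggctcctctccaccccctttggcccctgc
Gpnmb: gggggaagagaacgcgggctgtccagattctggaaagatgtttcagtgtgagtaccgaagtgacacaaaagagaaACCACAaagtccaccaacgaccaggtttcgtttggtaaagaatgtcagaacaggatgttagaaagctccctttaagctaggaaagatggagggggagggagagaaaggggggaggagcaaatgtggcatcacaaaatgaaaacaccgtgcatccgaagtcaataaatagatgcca
Each window held the motif 1 time, beginning 132 bases before the start in Bglap, 147 in Unc5c and 175 in Gpnmb. On either strand it occurred in 13.8% of the 16990 tested genes with a promoter in the table. It occurred in 19 of 204 genes that fell (9.31%) and in 19 of 72 that rose (26.4%). A match describes the letters only.

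**Figure D2:**
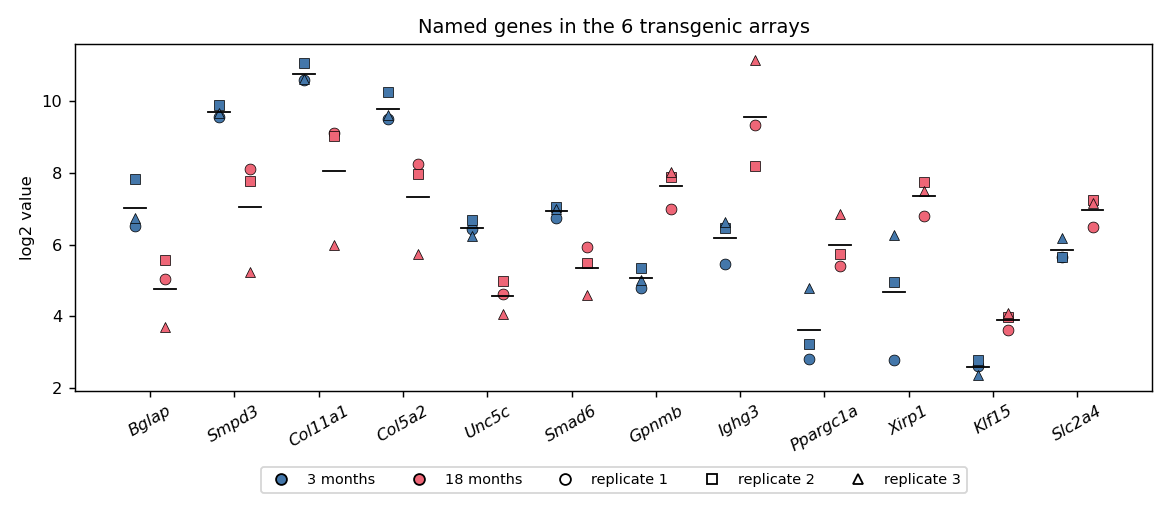
Log2 values of 12 named genes in the 6 transgenic arrays; colour gives age, symbols the replicate and bars the mean of 3 arrays. For Unc5c and Smad6 the 3 arrays of 18 months lie below the young ones with a modest spread, whereas for Smpd3, Col11a1 and Col5a2 the third array (triangle) lies 2 or more log2 units below the other two.

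Several of the largest rises were genes known from striated muscle, although none of the 22 listed skeletal muscle genes passed. Among the 15 largest rises were Xirp1, an actin-binding protein of muscle, the muscle ankyrin-repeat genes Asb2, Asb11, Asb12 and Asb14, the sarcoplasmic potassium channel Tmem38a, the calcium channel subunit Cacng1, the muscle cytochrome oxidase subunit Cox7a1 and the protease Capn3. Xirp1 read 6.81, 7.76 and 7.49 at 18 months and 2.79, 4.96 and 6.27 at 3 months, and rose by 3.55 (SE 0.80; limma, adjusted p = 0.0342). The young arrays were spread over more than 3 log2 units, with the first the lowest. That lowest value was dim, below the median of all rows in its array (3.59). The first and second young values of Asb12 (1.57 and 2.65) were dim as well. Without the prefix term the difference was 2.68 for Xirp1 and 2.36 for Tmem38a. A dimmer second row of Asb12 gave -0.11 (limma, adjusted p = 0.841). The ages did not overlap in 7 of the 22 listed skeletal muscle genes, against 7.35% of all genes that lay wholly higher. All 22 had higher values, with a median of 3.03. That median was 2.13 without the prefix term, and 2.06 with that term but without the first young array. Mb, myoglobin, had the lowest p, with a difference of 3.34 (limma, adjusted p = 0.065). The list mean was 5.63, 8.10 and 8.76 at 3 months and 8.70, 10.09 and 10.06 at 18 months. The third young array thus lay above the first old one.

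With the muscle mean of each array as a further term, the median over the 92 rises went from 1.55 to 0.95 and that over the 268 falls from -1.33 to -1.38. All 92 rises stayed above 0 and all 268 falls below 0, though these genes were chosen as called in the same data. With the term, 7 genes passed. The term is the mean of the 22 muscle genes in the same arrays, so genes that track them must shrink. The median of those 22 went from 3.03 to 0.05. Tmem38a, for example, had a difference of 3.31 without that term and 0.85 with it, Prkaa2, a catalytic subunit of AMP kinase, 2.47 and 0.77, and Best3, a chloride channel, 2.22 and 0.82. Ppp1r27, a phosphatase subunit, had 2.61 and 1.04. Xirp1 had 1.48 with the term, Asb12 1.45, Asb14 1.07, Cacng1 0.96, Cox7a1 and Capn3 0.89 each, Asb11 0.83 and Asb2 0.77. Gpnmb had 3.01 and 3.56.

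Genes of energy metabolism were higher too. Ppargc1a, the coactivator PGC-1α of mitochondrial biogenesis, read 5.39, 5.74 and 6.84 at 18 months and 2.81, 3.22 and 4.77 at 3 months. The young values of 2.81 and 3.22 were dim, below the median of all rows in their arrays (3.59 and 3.60). Ppargc1a rose by 3.18 (SE 0.55) without overlap (limma, adjusted p = 0.0152). Its difference was 2.39 without the prefix term and 2.00 with the muscle term. At 6 months it ran from 4.63 to 5.46. It was the 1 gene of the thermogenic fat list of 6 that rose; Ucp1, the uncoupling protein of brown fat, had a difference of -0.37 (limma, adjusted p = 0.386). Oxidative phosphorylation and TCA cycle genes were higher in all 19 measured, with a median of 0.53. The ages did not overlap in 13, against 7.35% of all genes, and 1 rose, against 0.415%. That was Ndufb5, a complex I subunit, by 0.76 (limma, adjusted p = 0.017). The median was 0.25 with the muscle term.

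Fat cell genes were higher, most of all in the first old array. All 20 measured (22 listed) had higher fitted values, with a median of 1.02. The ages did not overlap in 12, against 7.35% of all genes, and 1 rose, against 0.415%. That gene was Slc2a4, the insulin-responsive glucose transporter of fat and muscle, at 6.49, 7.24 and 7.16 against 5.65, 5.66 and 6.19. It rose by 1.54 (limma, adjusted p = 0.0492). Its difference was 1.13 without the prefix term and 0.72 with the muscle term. The adipocyte mean was 7.90, 6.83 and 7.01 at 18 months and 6.27, 5.95 and 6.67 at 3 months. The first old array was the highest, and without it the median was 0.63. Plin1, the perilipin that coats fat droplets, read 7.28, 4.79 and 4.80 at 18 months and 3.67, 3.61 and 4.75 at 3 months. Its difference of 1.79 (SE 0.64) did not pass (limma, adjusted p = 0.181). Lep, which encodes leptin, read 3.35, 2.12 and 2.00 against 1.57, 1.41 and 1.96, with a difference of 1.26 (limma, adjusted p = 0.417). All of these Lep values were dim, below the median of all rows in their arrays (3.58 to 3.63). In the leptin, insulin and IGF list, 1 of 19 rose, the insulin receptor substrate Irs2, by 0.93 (limma, adjusted p = 0.0285), and the list's median was -0.01.

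Immunoglobulin genes were higher at 18 months. All 10 measured plasma cell genes (15 listed) had higher values, 6 without overlap, against 7.35% of all genes. Of the 10, 1 rose, against 0.415% of all genes. That was Ighg3, the IgG3 heavy chain, at 9.33, 8.18 and 11.16 against 5.45, 6.47 and 6.62. The third old array was the highest by far, and the rise of 3.52 (SE 0.78; limma, adjusted p = 0.0324) was 2.67 without it. A dimmer second row of Ighg3 gave 1.64 (limma, adjusted p = 0.513). Ighm, the IgM heavy chain, with 1.71, and Jchain, the chain that joins antibody subunits, with 1.88, did not pass (limma, adjusted p = 0.0504 and 0.0852). The list's median of 1.38 was 0.93 without the third old array and 0.76 with the muscle term. The median over 15 B cell genes was -0.20, and ran from -0.66 without the second old array to 0.13 without the third, whose mean of 5.18 was below the 6.34 and 6.35 of the other old arrays.

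**Figure D3:**
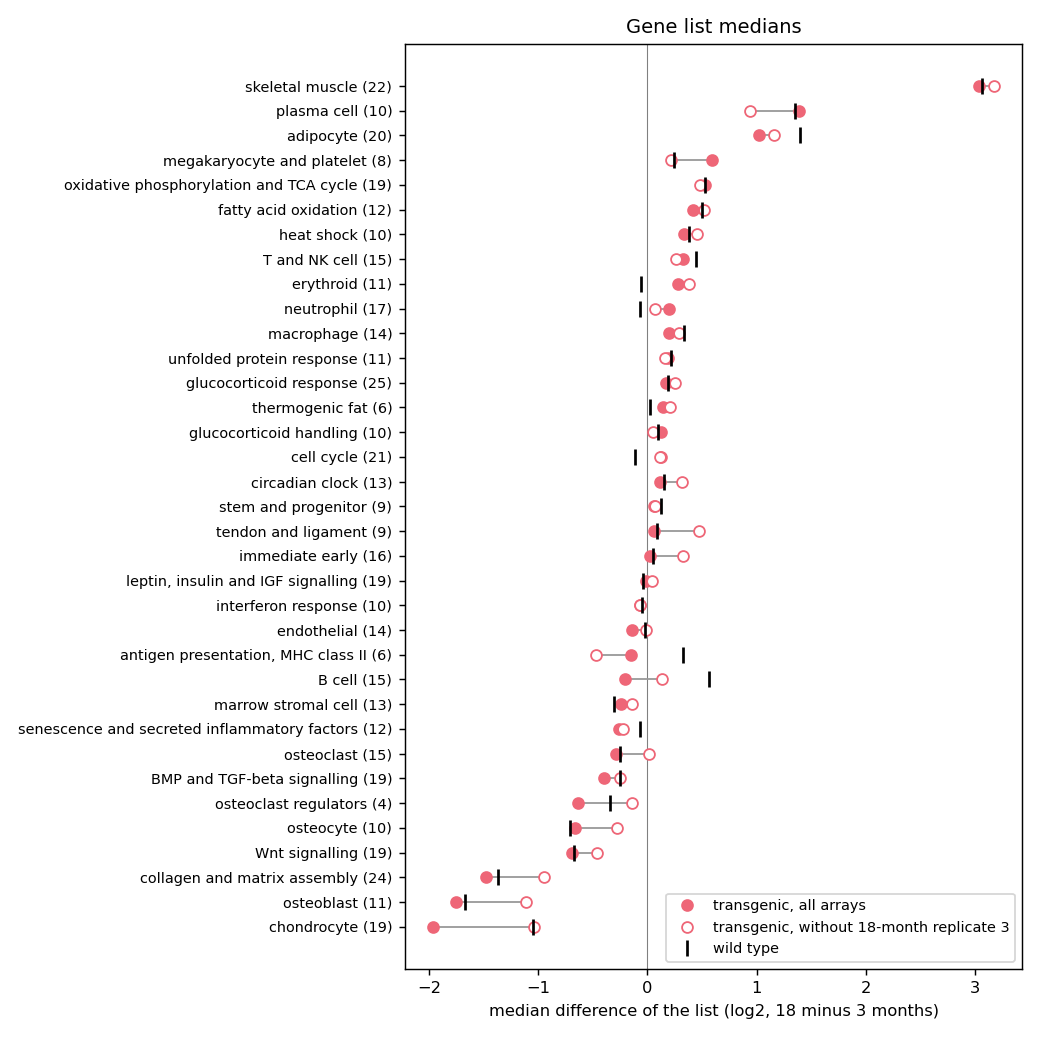
Median log2 difference (18 minus 3 months) of each of 35 gene lists, with the number of genes measured in brackets; filled circles use all arrays, open circles leave out the third 18-month array and ticks show wild-type bone. Osteoblast and collagen medians move from -1.75 to -1.11 and from -1.47 to -0.94 without that array, while the skeletal muscle median stays near 3.

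Of 25 glucocorticoid response genes measured, 1 rose, where 0.415% of all genes did. It was Klf15, a transcription factor induced by the receptor. It read 3.60, 3.98 and 4.09 at 18 months and 2.61, 2.76 and 2.36 at 3 months, a rise of 1.55 (SE 0.31; limma, adjusted p = 0.0244) without overlap, and of 1.14 with the muscle term. The 3-month values of Klf15 were dim, below the median of all rows in those arrays (3.59 to 3.62). The list's median was 0.17. None of 10 genes of glucocorticoid handling passed at an adjusted p of 0.05; Nr3c2, the mineralocorticoid receptor, had a difference of 0.61 and Fkbp4, a chaperone of the receptor complex, of 0.33 (limma, adjusted p = 0.212 and 0.313). The orphan nuclear receptors Nr4a3 and Nr4a1 of the immediate early list rose by 1.87 and 1.61 (limma, adjusted p = 0.0214 and 0.0342), 2 of 16 genes. In the senescence list, 1 of 12 rose, the cytokine Il1b, by 1.05 (limma, adjusted p = 0.0394), and the list's median was -0.26.

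The third array of 18 months carried more than its share of the falls. It was the lowest of the 3 old arrays in 233 of the 268 falls, against 32.9% of all genes, and the highest in 52 of the 92 rises, against 37.8%. Other arrays were skewed as well. The first old array was the highest old one in 199 falls, against 33.7% of all genes, and the lowest in 66 rises, against 34.2%. The first young array was the lowest young one in 211 falls and 60 rises, against 34.3% of all genes. The mean of the 268 fallen genes was 5.86, 5.60 and 4.92 in the old arrays and 6.56, 7.00 and 6.94 in the young ones. The mean of the 92 risen genes was 5.75, 6.29 and 6.48 against 4.49, 4.72 and 5.11. For both sets, then, all 3 old arrays were on the same side of all young ones, and the third was the farthest. In means without the prefix term, the median fall was -1.35 with all 3 old arrays, -1.07 with the other two, and -1.85 with the third alone. The share of a gene's change that came from the third array had a median of 45.9% over the falls and 41.1% over the rises. With the other 2 old arrays alone, 262 of the 268 falls and 80 of the 92 rises lay wholly on their side of the young arrays. With all 3 old arrays the counts were 262 and 78. Leaving out an array cannot lower them, so they do not show that the change holds without the third array. These genes were also chosen with the third array included.

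**Figure D4:**
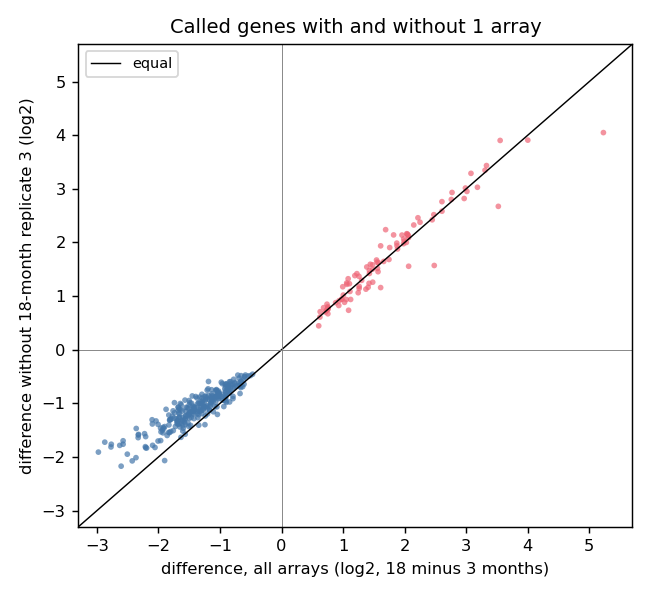
Log2 difference (18 minus 3 months) of the 360 called genes with all arrays (x axis) and without the third 18-month array (y axis); the line marks equal values. All points keep their sign, most falls (blue) lie above the line, with a median of 0.805 of their size, and rises (red) lie around it with a median of 1.01. In fits without the prefix term, which are not drawn, these medians were 0.812 and 0.883.

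Leaving that array out of the limma fit ended every call: 0 genes passed, with 2108 at an unadjusted p under 0.05 and a smallest adjusted p of 0.0752. All 360 genes kept their direction and an unadjusted p under 0.05. They had been chosen at a far stricter threshold with that array included, and the same held on removal of any other single array. The falls kept a median of 0.805 of their size and the rises 1.01, and 1 fall shrank below 0.5 of its size. In fits without the prefix term the rises shrank too: the falls kept a median of 0.812 and the rises 0.883. Dipk2a, the fall that shrank most, read 7.22, 7.00 and 5.56 at 18 months and 7.63, 7.67 and 7.91 at 3 months, with -1.19 becoming -0.59. Standard errors grew to a median of 1.11 times. Among the rises, Ighg3 and Lat, a T cell adaptor protein that rose by 0.60 (limma, adjusted p = 0.0461), were of the 5 that shrank most.

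That array was not the only one on which the calls rested. Without the second array of 3 months, 4 genes passed, 1 higher and 3 lower, and the falls kept a median of 0.883 of their size. Removal of the first array of 3 months left 209 calls, and of the third 246. Removal of the first array of 18 months left 395, and of the second 282. The number of calls thus varied far more than the differences. Of the 360 genes, 91 were called in at least 4 of the 6 removals.

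**Figure D5:**
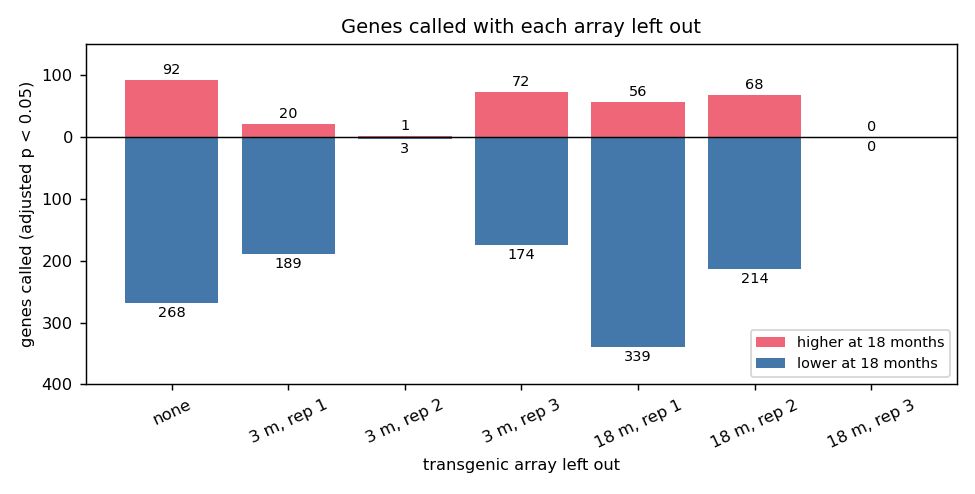
Number of genes called at an adjusted p under 0.05, higher (red, above 0) and lower (blue, below 0) at 18 months, with all arrays and with each of the 6 transgenic arrays left out. Calls drop from 360 to 0 without the third 18-month array and to 4 without the second 3-month array, and lie between 209 and 395 in the other removals.

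The 2 ages also differed in the code prefix of the sample source, whose meaning the labels do not give. Both ages shared the prefix HEN513 in 2 arrays each, and the first old array and the third young array carried others, so the fit held a term for it. Within HEN513 alone, 97 genes passed, 47 higher and 50 lower, 68 of them among the 360. Without the term, 288 passed, 37 higher and 251 lower, 216 of them among the 360.

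At 6 and 12 months the transgenic bone was already low in matrix genes. The osteoblast mean was 7.28, 8.04 and 8.64 at 6 months and 8.17, 7.64 and 8.08 at 12 months, all below the young arrays. The first and second arrays of 18 months, at 8.74 and 8.47, were within or above that range, and the third, at 6.78, was below it. The collagen mean ran from 7.59 to 8.83 at 6 months and from 7.91 to 8.48 at 12 months. Plasma cell means ran from 6.53 to 7.29 at 6 months, from 7.06 to 7.70 at 12 months and from 6.96 to 8.21 at 18 months, all above the young range of 6.19 to 6.45. The skeletal muscle mean was 9.27, 10.57 and 9.40 at 6 months, all above the young arrays. At 12 months it was 7.97, 9.85 and 9.17, the first of these within the young range. The higher muscle values were thus already present at 6 months. These levels describe the arrays and were not tested.

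Wild-type bone of the same ages was set beside it to ask whether the change differed with the transgene. No gene passed the test of the difference between genotypes (limma contrast at an adjusted p of 0.05, smallest 0.713), and 754 genes, 3.4%, had an unadjusted p under 0.05, 35 of them among the 360. In wild-type bone 592 genes passed between the same ages, 310 higher (1.4%) and 282 lower (1.27%). Of the transgenic falls 158 were called in wild type too, 59.0% of the former and 56.0% of the latter. Of the rises 65 were, 70.7% and 21.0%. No gene was called in opposite directions. Both age differences came from a single fit with a shared estimate of the spread. The wild-type arrays of these ages also carried the same prefixes, replicate by replicate, as the transgenic ones. The same prefix correction thus entered both differences, and the overlap in calls is not independent. Bglap differed by -2.72 in wild type, Gpnmb by 3.03 and Unc5c by -1.61. The difference between genotypes was 0.21 for Bglap, with a 95% confidence interval from -1.30 to 1.73, so that a 2-fold difference in either direction lies inside it. Zfp119b, a zinc finger gene, had the lowest p among genes higher in the transgenic change, at 1.12 in transgenic and -0.50 in wild-type bone (limma, adjusted p of the difference 0.713).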

How the data were processed

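The deposited table holds log2 values of 24 arrays, 41034 rows each. Per the submitters' processing notes, MAS5 was used; how background was corrected and arrays scaled, and the genome build, is not given in the sources used here, and the base of the log is read from the range of the deposited values (0.0921 to 13.7). Rows were named through the platform annotation: 23521 rows had 1 symbol, 1814 several and 15699 none, and 23328 of the first matched a RefSeq table of GRCm38.p6. For 1082 genes with several rows the row of highest mean over all arrays was used. No 2 arrays held identical values. limma 3.58.1 (R 4.3.3) was fitted to all 24 arrays with group and source prefix as terms (14 residual degrees of freedom), with two-sided tests and Benjamini-Hochberg adjustment over 22180 genes. A fold is 2 raised to the fitted log2 difference. No further normalisation or filter was applied, and the number of arrays limits the precision: an exact permutation test of 3 against 3 cannot go below 0.1. The outlying array was the one least correlated with its group. Among called genes whose groups did not overlap, the 15 largest rises and falls were named, with up to 4 called members of each list, or up to 2 of lowest p where none was called, and those shrinking most without the outlying array; predicted genes and antibody or receptor segments were counted but not named, 10 of the called rises and 10 of the called falls. Col1a1, Col1a2, Acan, Ucp1, Plin1, Lep, Ighm, Jchain and the genes so marked in the report were named after their values were seen. The arrays compared, the gene lists and the rules were chosen with earlier results of these data known. The fit was tested on simulated data. Alternatives covered the prefix term, the arrays fitted, a replicate block, scaling, filters, variance models, array weights, a fold minimum, muscle signal and single arrays left out.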

Additional observations from a re-analysis of the deposited data

Results flagged for a closer look

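Rows of the table with no gene symbol were not part of the comparison. Of 15699 such rows, 1 passed the test between the ages (limma, adjusted p = 0.0148 over rows without a symbol of their own). It read 5.66, 4.88 and 4.16 at 18 months and 7.23, 7.17 and 7.33 at 3 months, lower in all old arrays, with a fitted difference of -2.81 (SE 0.37). Rows with several symbols gave 0 calls with limma and 207 at an unadjusted p under 0.05. Groups of 3 arrays are too small for a test of single outlying values.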

How the results depend on the processing

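The 55 called genes named in the text were recomputed under 46 other settings, 2530 values in all. All kept their direction, 1561 stayed past an adjusted p of 0.05 in limma and 969 did not. These genes were chosen as called in the same data. The direction could not change under the filter of dim genes, the fold minimum or the variance models, which leave the fitted difference as it was. The count of 360 called genes was far less stable. It was 97 within the prefix HEN513, 4 with only the 6 arrays compared and no prefix term (4 higher, 0 lower), 2 with only the transgenic arrays (2 higher, 0 lower), 66 without variance shrinkage, 553 with array weights, 7 with the muscle term and 0 with a minimum fold of 1.5 (578 at an unadjusted p under 0.05); the cause was not tested, though fewer arrays leave fewer degrees of freedom. With single arrays left out it ran from 0 to 498, with 212 without the third wild-type array of 3 months and 235 without the second transgenic array of 12 months. With no prefix term and 1 array left out, a setting chosen after seeing the data, it was 511, 190 and 21 without the first, the second and the third array of 18 months, and 391, 35 and 73 without those of 3 months, against 288 with all arrays and no prefix term. Quantile normalisation gave 416 calls, median centring 391, and leaving out dim genes 465. The difference between genotypes gave 0 calls in limma under every setting, with 20 to 1032 genes at an unadjusted p under 0.05. Hsd11b2 ran from -0.58 to -0.14 and never passed.

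With the replicate number as a block, 29 genes passed, 3 higher and 26 lower, and with the block and no prefix term 241 passed, 35 higher and 206 lower. Arrays of the same number did not deviate together between the ages (correlations of -0.06, 0.05 and -0.01), so the numbers were not taken to pair the ages. Between transgenic and wild-type arrays of the same number the correlations were 0.29, 0.13 and 0.23 at 18 months and 0.14, 0.08 and 0.28 at 3 months, 5 of 6 over 0.1; the test of the difference between genotypes gave 0 calls in limma with the block too (733 genes at an unadjusted p under 0.05).

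Ucp1, whose difference did not pass, changed sign to 0.0154 without the prefix term and the third array of 18 months.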

Other observations

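None of 11 erythroid genes measured passed with limma at an adjusted p of 0.05, although all 11 were higher, with a median of 0.28, or 0.57 with the muscle term. The 8 megakaryocyte and platelet genes were all higher as well, with a median of 0.59, which was 0.22 without the third old array and 0.91 with the muscle term. Its mean over that list was 9.13, against 8.08 and 8.53 in the other old arrays and 7.98 to 8.17 in the young ones. Among 17 neutrophil genes, the ficolin Fcnb read 8.05, 8.08 and 8.62 at 18 months and 5.59, 5.03 and 5.67 at 3 months. That gap held in all 6 arrays, but the difference of 2.92 had an SE of 0.83 and did not pass (limma, adjusted p = 0.0768). The neutrophil list's median was 0.20, or 0.07 without the third old array and 0.49 with the muscle term.

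Several other lists held no called member. Among them, stem and progenitor genes (9 measured, median 0.06), unfolded protein response genes (11, median 0.19), heat shock genes (10, median 0.33) and cell cycle genes (21, median 0.12) were near 0 or slightly above. Cell cycle genes had 0.30 with the muscle term. Tendon and ligament genes (9, median 0.06) had no settled direction: their median was 0.47 without the third old array, -0.10 without the first, -0.11 without the first young array and -0.91 with the muscle term. Clock genes (13, median 0.12) turned to -0.21 and interferon response genes (10, median -0.07) to 0.38 with the muscle term. The regulators of osteoclasts (4, median -0.63) moved to -0.14 without the third old array, and fatty acid oxidation genes (12, median 0.42) to 0.14 with the muscle term. Without the third old array, antigen presentation genes (6, median -0.15) had -0.47, marrow stromal genes (13, median -0.24) had -0.14 and endothelial genes (14, median -0.14) had -0.02. The genes of glucocorticoid handling, with a median of 0.13, had 0.05 without that array. The T and NK cell list (15, median 0.32) held Lat as its 1 called gene.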
